A study of Homo sapiens with 6 samples.

Results

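Ribosomal proteins are the protein part of the cytosolic ribosome, the particle that translates messenger RNA. The genes described here were chosen by symbol alone, as the genes named for a protein of the 40S or 60S ribosomal subunit (RPS or RPL with a number, and the suffixes A, X, L, AL or L1), together with RPLP0, RPLP1, RPLP2 and RPSA. The rule took no pseudogene and found 85 genes of the 58735 gene rows in the series: 31 of the small 40S subunit, 43 of the large 60S subunit, 3 of the acidic stalk of the large subunit, and 8 paralogs whose symbols add L or L1. The gene FAU, which encodes a ribosomal protein fused to a ubiquitin-like protein, does not match the rule and is described among other translation genes.

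The series compares T24, an established human cell line of bladder urothelial carcinoma labelled as wild type, with TGF-b1 at 10 ng/ml for 48 h and without it. It holds 3 TGF-b1 libraries and 3 control libraries, all labelled day 2. All cells shared a culture medium with fetal bovine serum and antibiotics, so both groups were also exposed to what serum contains. TGF-b1 is a secreted cytokine that signals through receptor kinases and SMAD factors. Nothing in the labels says whether the libraries of a group were grown as separate cultures. The p-values therefore describe the spread between these libraries, part or all of which may be technical. In bulk RNA, fewer cells and less RNA of a gene per cell cannot be told apart.

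The libraries held 53591796 to 60200816 reads, of which 93.5 to 95.5% mapped, and 20703945 to 23678772 fragments were recovered on genes with a unique symbol, as whole fragments. Known targets of the cytokine were looked at first as a check of the labels. PMEPA1 was at 75.3, 63.6 and 66.2 FPKM in the TGF-b1 libraries, against 15.2, 14.6 and 12.4 FPKM in the control libraries (limma, adjusted p = 7.1e-06). SMAD7 and SKIL also rose (adjusted p = 0.00055 and 0.00055). Of 6 epithelial markers, with a summed level of 406 to 438 FPKM in the TGF-b1 and 469 to 636 FPKM in the control libraries, KRT8 and KRT18 were abundant, while KRT19 was at 0 and EPCAM and CDH1 stayed below 1 FPKM in every library. Of the urothelial markers UPK1A, UPK1B, UPK2, UPK3A, GATA3, KRT5 and KRT20, 5 of 7 stayed below 1 FPKM in every library and their summed level was 1.96 to 2.16 FPKM in the TGF-b1 and 2.71 to 3.80 FPKM in the control libraries. Most defining urothelial markers were thus absent or near 0. All 11 leukocyte, endothelial and fibroblast markers stayed below 1 FPKM.

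Each ribosome carries a single copy of most ribosomal proteins, and their messenger RNAs are among the most abundant in growing cells. These messages usually begin with a 5' terminal oligopyrimidine (TOP) tract, a cytidine followed by a run of pyrimidines, through which the kinase complex mTORC1 and the RNA-binding protein LARP1 govern their translation. Surplus ribosomal proteins are degraded, and RPL5 and RPL11, when not built into ribosomes, can bind MDM2 and stabilise p53. Only message levels were measured here.

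The start sites of the messages show a shared feature that the selection by symbol did not use. RefSeq gave at least 1 annotated start on GRCh38.p14 for 68 of the 85 genes. A cytidine at the annotated start itself followed by at least 4 pyrimidines, read on the sense strand only, was present in 47 of these 68 genes (69.1%), against 584 of the other 8201 tested genes with a start (7.12%) and 1404 of all 27305 genes with one (5.14%). Allowing the tract to begin within 5 bases on either side of the start, 55 of 68 (80.9%) held it, against 2389 of 8201 (29.1%). The 30 bases below run from 15 before the start to 15 from it, 5' to 3', and capitals mark the tract. The first 4 belong to genes with low ratios in the TGF-b1 libraries, described after them:
RPL36 at chr19:5690280-5690309 (+ strand): ccgcgcggcgccagcCCTTCCgccacggcc
RPL35 at chr9:124861943-124861972 (- strand): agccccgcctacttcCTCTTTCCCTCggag
RPL27A at chr11:8682777-8682806 (+ strand): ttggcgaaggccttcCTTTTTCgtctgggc
RPS14 at chr5:150449725-150449754 (- strand): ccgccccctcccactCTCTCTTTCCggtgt
The next 4 belong to RPS12, with a log2 change of -0.20, and to RPS21, RPS27 and RPL39, with changes above 0. Groups overlapped in these 4, as they did in RPL36, RPL35 and RPS14 above:
RPS12 at chr6:132814554-132814583 (+ strand): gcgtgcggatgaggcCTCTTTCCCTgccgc
RPS21 at chr20:62387088-62387117 (+ strand): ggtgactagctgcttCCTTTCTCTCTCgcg
RPS27 at chr1:153990747-153990776 (+ strand): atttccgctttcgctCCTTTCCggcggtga
RPL39 at chrX:119791616-119791645 (- strand): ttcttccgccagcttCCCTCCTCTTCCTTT
The last 5 are RPL22 with its paralog RPL22L1, both with a tract, and 3 paralogs without a tract that begins within 5 bases of the start:
RPL22 at chr1:6199581-6199610 (- strand): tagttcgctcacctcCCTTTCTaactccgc
RPL22L1 at chr3:170870181-170870210 (- strand): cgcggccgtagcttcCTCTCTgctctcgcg
RPS27L at chr15:63157463-63157492 (- strand): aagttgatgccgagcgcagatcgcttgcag
RPL26L1 at chr5:172958714-172958743 (+ strand): agtcttccaggggtcggcgaacgaaacgcg
RPL7L1 at chr6:42879601-42879630 (+ strand): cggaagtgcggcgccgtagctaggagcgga
For RPL26L1 the first of its annotated starts is shown, and in RPL39 the tract continues past the window, to 19 bases in all. A tract is a match of letters at an annotated start and was not tested as a functional element. It stood in genes with low ratios and in genes with ratios above 1. Among 65 tested genes with an annotated start, the 45 with a tract exactly at the start had a median log2 change of -0.18 (range -0.74 to 0.21) and the 20 without had -0.097 (range -0.35 to 0.17).

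Messages of ribosomal proteins made up a large share of the RNA in both groups. Their summed FPKM was 6.79, 6.83 and 7.02% of the FPKM sum over all genes in the TGF-b1 libraries, against 7.82, 8.16 and 7.12% in the control libraries. Control 3 was the lowest control and stood just above the highest TGF-b1 library, so the groups did not overlap but nearly touched. The means were 6.88 ± 0.123% in TGF-b1 and 7.70 ± 0.529% in control libraries (SD, n = 3 each). In fragments, which are not divided by gene length, the shares were 5.64, 5.74 and 6.06% in the TGF-b1 libraries and 6.82, 7.26 and 6.04% in the control libraries, and by that measure control 3 lay inside the TGF-b1 range. No p-value is given for these sums, because the genes were chosen with results known.

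The sums of the large and the small subunit were not equally far apart. The 43 genes of the 60S subunit summed to 3.35 ± 0.0742% of FPKM in TGF-b1 and 3.89 ± 0.271% in control libraries. The 31 genes of the 40S subunit summed to 2.93 ± 0.148% in TGF-b1 and 3.20 ± 0.221% in control libraries, and TGF-b1 3, at 3.10%, lay above control 3, at 2.96%. The 3 stalk genes stood at 0.539 ± 0.0535% in TGF-b1 and 0.553 ± 0.0386% in control libraries, less apart than the spread within either group. The difference between the subunits was not tested.

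**Figure D1:**
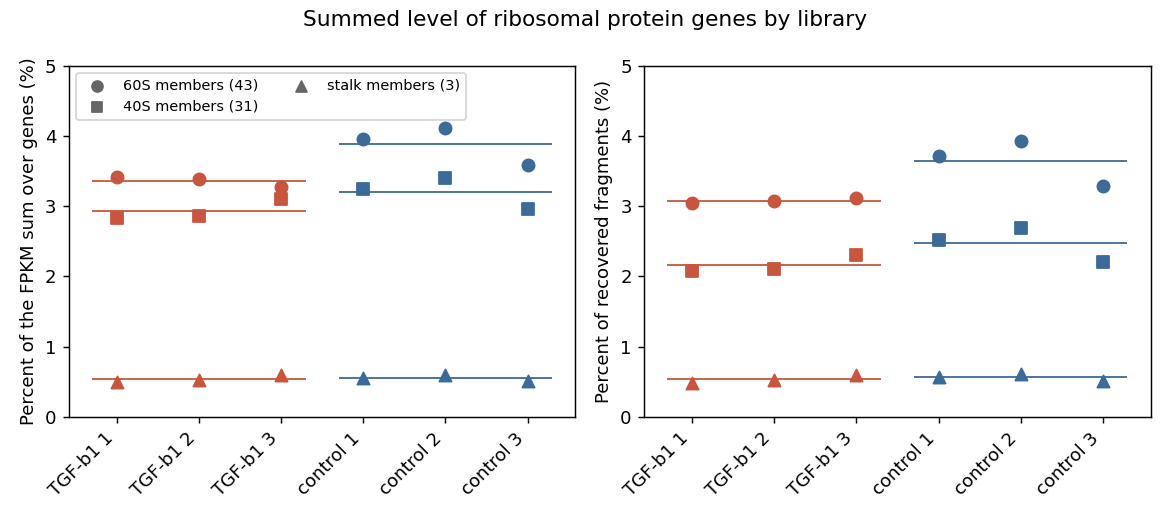
Share of the summed FPKM (left) and of recovered fragments (right), in percent, taken by the 60S (circles), 40S (squares) and stalk (triangles) genes in each library, with the TGF-b1 libraries in red, the control libraries in blue and group means as lines. The 60S share of FPKM was 3.27 to 3.41% in the TGF-b1 and 3.59 to 4.11% in the control libraries, and control 3 was the lowest control in each of the 3 classes.

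Gene by gene, no ribosomal protein message passed the test. Of the 85 genes, 81 reached 1 FPKM in at least 3 libraries and were tested. In limma on log2(FPKM + 1), a scale on which fold changes of low genes are understated, 0 of the 81 were called at an adjusted p under 0.05, in either direction, against 277 of 11363 genes over the whole table (percent called 2.44). At an unadjusted p under 0.05 there were 28, all lower with TGF-b1 (21 of 42 60S genes and 7 of 30 40S genes), and 13.9% of all genes tested were lower by the same measure. In 25 of the 81 genes all 3 TGF-b1 values lay below all 3 control values, and in 0 all lay above. Over all genes tested these shares were 12.5% and 14.6%. The log2 change was below 0 in 66 of the 81, against 48.0% of all genes tested. Its median was -0.15 over the 81 genes and 0.012 over all genes tested.

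Whether any gene was called depended on control 3 and on the settings. Control 3 was the library in which 65 of the 81 genes were lower than in both other controls (80.2%, against 42.2% of all genes tested). Without it, 29 of the 81 genes were called lower and 0 higher (21 of the 60S and 8 of the 40S subunit), while 16.5% of all genes tested were called lower in that fit. The median log2 change was then -0.23 over the 81 genes and 0.014 over all genes. Relative to the mean of control 1 and control 2, the median over the 81 genes was -0.35, -0.24 and -0.13 in TGF-b1 1, TGF-b1 2 and TGF-b1 3, and -0.24 in control 3, so this control lay within the range of the TGF-b1 libraries. Limma's voom on the recovered fragments, with all libraries kept, called 20 of the 81 lower and 0 higher, where 4.87% of all genes tested were called lower. With any other single library left out the count was 0. Control 3 was the lowest control in most of the 81 genes, so leaving it out raises their control means. Calls without control 3, here and below, are therefore no separate support for a lower level. With all libraries kept, 5 of 80 were called lower at a minimum of 5 FPKM (4.79% of all genes tested), 11 of 81 when only protein-coding genes were fitted (5.47%), and 1 of 81 when libraries were scaled to a median ratio of 0 over the other genes (1.49%).

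**Figure D2:**
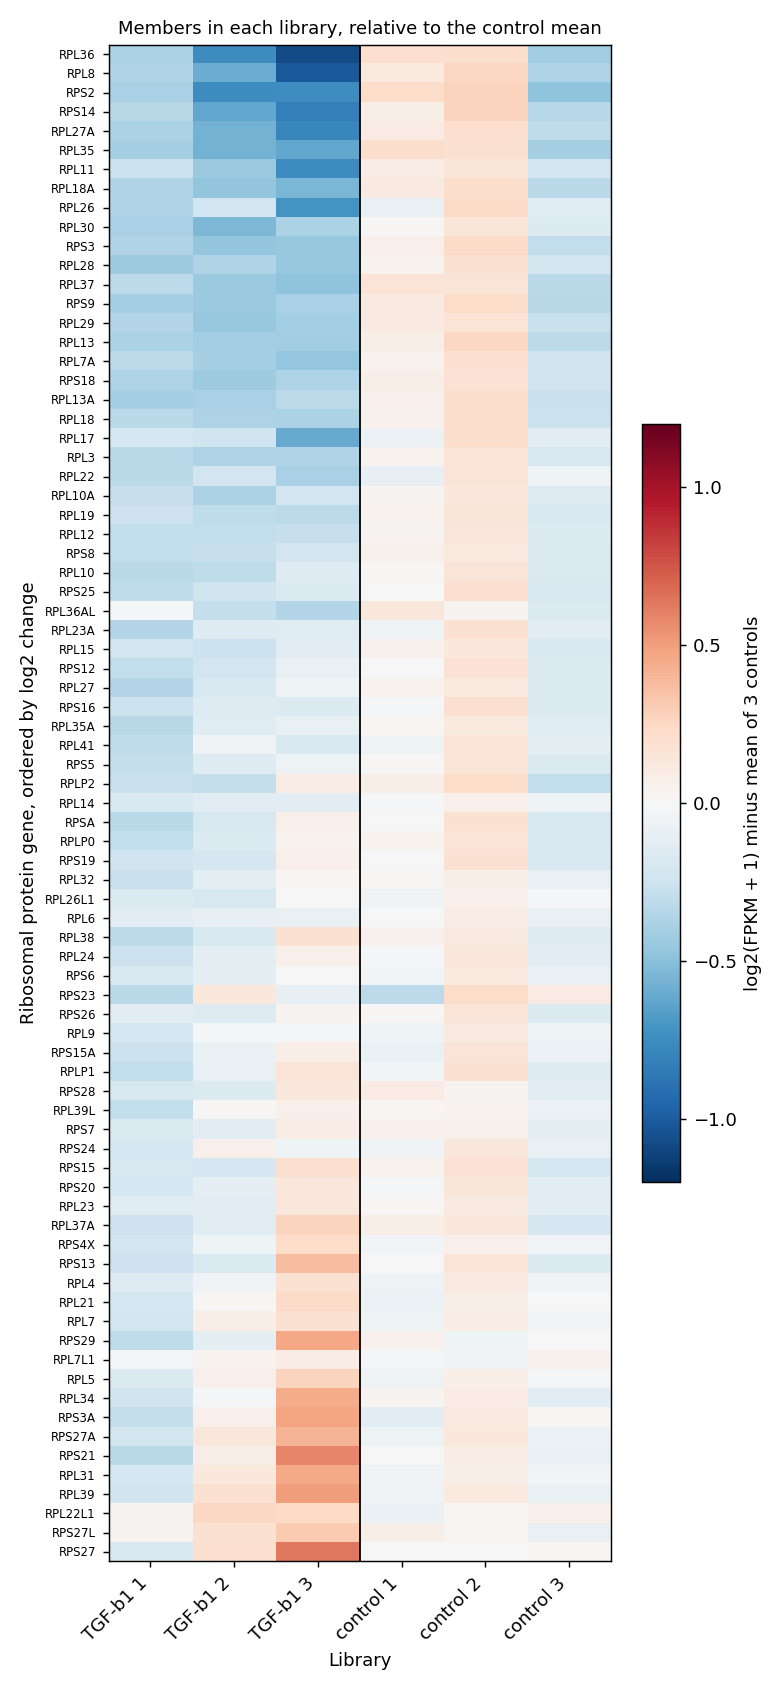
Level of 79 of the 81 tested genes in each library, as log2(FPKM + 1) minus the mean of the 3 control libraries (blue below, red above), with genes ordered by log2 change from the lowest at the top and TGF-b1 libraries left of the line. Control 3 is blue in most rows, and TGF-b1 3 has the widest range, from -1.08 in RPL36 to 0.64 in RPS27.

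The genes with the lowest ratios belonged to both subunits. They are named here after their values were seen, apart from RPL8, RPS2 and RPS14. RPL36, a protein of the 60S subunit (GRCh38 chromosome 19, 5674947 to 5691876), was at 90.7, 69.9 and 55.7 FPKM in the TGF-b1 libraries, against 136, 138 and 88.7 FPKM in the control libraries. Control 3 lay below TGF-b1 1, so the groups overlapped, and the mean was 0.596 times the control mean (log2 change -0.74, SE 0.224, adjusted p = 0.12). RPL8, which lies close to the peptidyl transferase centre (chromosome 8, 144789765 to 144792587), was at 776, 660.0 and 494 FPKM in the TGF-b1 libraries, against 1077, 1184 and 772 FPKM in the control libraries. Here too control 3 lay inside the TGF-b1 range (log2 change -0.65, SE 0.200, adjusted p = 0.11). RPS2, which sits near the entry of the mRNA channel (chromosome 16, 1962052 to 1964860), was at 729.7, 569 and 570.2 FPKM in the TGF-b1 libraries, against 1117, 1153 and 683 FPKM in the control libraries (log2 change -0.63, SE 0.205, adjusted p = 0.12). TGF-b1 1 was above control 3. RPS14, a protein of the platform of the small subunit, was at 185, 152 and 131 FPKM in the TGF-b1 libraries, against 245, 281 and 184 FPKM in the control libraries, and control 3 lay just below TGF-b1 1 (log2 change -0.59, SE 0.173, adjusted p = 0.096).

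In 25 genes the groups did not overlap, and RPL27A and RPL30 were among them. RPL27A, of the 60S subunit (chromosome 11, 8682411 to 8714759), was at 83.9, 73.5 and 63.3 FPKM in the TGF-b1 libraries, against 117, 126 and 88.3 FPKM in the control libraries (log2 change -0.57, SE 0.149, adjusted p = 0.071). RPL30, also of the 60S subunit, had the smallest adjusted p of all 81 genes and stood at 25.3, 22.6 and 25.4 FPKM in the TGF-b1 libraries, against 33.7, 36.8 and 29.7 FPKM in the control libraries (log2 change -0.44, SE 0.104, adjusted p = 0.056). Neither passed, and both did without control 3, at log2 changes of -0.73 (adjusted p = 0.011) and -0.52 (adjusted p = 0.01). In that fit 16.5% of all genes tested were called lower. RPL35, which lies at the exit of the peptide tunnel, was at 359, 320.0 and 308 FPKM in the TGF-b1 libraries, against 549.9, 539 and 359 FPKM in the control libraries, with TGF-b1 1 just above control 3 (log2 change -0.53, SE 0.163, adjusted p = 0.10). Without control 3, RPL36, RPL8, RPS2, RPS14 and RPL35 passed as well, at -0.95 (adjusted p = 0.018), -0.84 (adjusted p = 0.02), -0.87 (adjusted p = 0.0084), -0.76 (adjusted p = 0.015) and -0.73 (adjusted p = 0.0066).

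The 5 most abundant messages by mean FPKM were RPS12, RPL13A, RPL8, RPS2 and RPLP0. RPS12, a protein of the head of the small subunit, was at 859, 903 and 990.4 FPKM in the TGF-b1 libraries, against 1046, 1188 and 939 FPKM in the control libraries. TGF-b1 3 lay above control 3 (log2 change -0.20, SE 0.124, adjusted p = 0.32). RPL13A, often used as a reference gene in quantitative PCR, was at 785, 787 and 829 FPKM in the TGF-b1 libraries, against 1079, 1194 and 857 FPKM in the control libraries, and the groups did not overlap (log2 change -0.37, SE 0.134, adjusted p = 0.14). Without control 3 it passed, at -0.50 (adjusted p = 0.012). RPLP0, the scaffold of the stalk that recruits translation factors and another common reference gene, was at 653, 716 and 828 FPKM in the TGF-b1 libraries, against 824, 892 and 703 FPKM in the control libraries, and TGF-b1 3 exceeded 2 of the 3 controls (log2 change -0.14, SE 0.133, adjusted p = 0.51, 95% interval -0.43 to 0.15). Its partners RPLP1 and RPLP2 averaged 535 ± 84.6 FPKM in TGF-b1 and 562 ± 68.7 FPKM in control libraries, and 280.3 ± 42.2 FPKM in TGF-b1 and 313 ± 55.4 FPKM in control libraries (adjusted p = 0.75 and 0.53). In each stalk gene TGF-b1 3 was the highest TGF-b1 library and control 3 the lowest control.

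RPL5 and RPL11, the partners of the 5S ribosomal RNA, differed in their values. RPL5 was at 219.7, 259 and 298 FPKM in the TGF-b1 libraries, against 237, 261 and 245 FPKM in the control libraries (log2 change 0.052, SE 0.125, adjusted p = 0.81, 95% interval -0.22 to 0.33). RPL11 was at 178, 156 and 125 FPKM in the TGF-b1 libraries, against 226, 234.9 and 180.5 FPKM in the control libraries, without overlap between the groups (log2 change -0.49, SE 0.147, adjusted p = 0.099, 95% interval -0.81 to -0.16), and it passed without control 3 at -0.60 (adjusted p = 0.023). RPS6, the substrate of the S6 kinases, averaged 195 ± 12.3 FPKM in TGF-b1 and 209 ± 15.4 FPKM in control libraries (log2 change -0.10, SE 0.106, adjusted p = 0.56). RPS19, the gene most often mutated in Diamond-Blackfan anaemia, averaged 262 ± 30.8 FPKM in TGF-b1 and 286 ± 36.8 FPKM in control libraries (log2 change -0.13, SE 0.129, adjusted p = 0.54). In both genes the groups overlapped, as they did in RPL41 and RPL10. RPL41, whose product is a very short basic peptide, averaged 652 ± 60.5 FPKM in TGF-b1 and 737 ± 76.6 FPKM in control libraries (log2 change -0.18, SE 0.122, adjusted p = 0.37). RPL10, a protein added late in the maturation of the large subunit, averaged 354 ± 22.8 FPKM in TGF-b1 and 426 ± 48.8 FPKM in control libraries (log2 change -0.26, SE 0.118, adjusted p = 0.20), and passed without control 3 at -0.35 (adjusted p = 0.033). RPL3, near the peptidyl transferase centre, averaged 280.4 ± 5.02 FPKM in TGF-b1 and 359 ± 43.5 FPKM in control libraries with groups that did not overlap (log2 change -0.35, SE 0.116, adjusted p = 0.12), and passed without control 3 at -0.45 (adjusted p = 0.012).

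At the other end of the order the fitted change was above 0, and none of these genes passed. RPS27, a zinc finger protein of the 40S subunit, was at 205, 266 and 363 FPKM in the TGF-b1 libraries, against 232, 233 and 234.9 FPKM in the control libraries (log2 change 0.21, SE 0.178, adjusted p = 0.45, 95% interval -0.18 to 0.61). The 3 controls were nearly equal, and the TGF-b1 libraries spread on both sides of them. RPS21, also of the 40S subunit, was at 429, 568 and 805 FPKM in the TGF-b1 libraries, against 534, 569.9 and 509.7 FPKM in the control libraries (log2 change 0.11, SE 0.201, adjusted p = 0.74). RPL39, a short protein that lines the peptide tunnel, was at 92.8, 124 and 156 FPKM in the TGF-b1 libraries, against 106, 119 and 104 FPKM in the control libraries (log2 change 0.15, SE 0.168, adjusted p = 0.59). In all 3 genes TGF-b1 1 was the lowest and TGF-b1 3 the highest of the 6 libraries. RPS27A, a ribosomal protein made as a fusion with ubiquitin, averaged 245 ± 52.5 FPKM in TGF-b1 and 224 ± 17.8 FPKM in control libraries (adjusted p = 0.66). Near or below 0 lay RPSA and RPS4X. RPSA, known also as a laminin receptor, averaged 508 ± 70.3 FPKM in TGF-b1 and 563 ± 73.9 FPKM in control libraries (adjusted p = 0.50). RPS4X, encoded on the X chromosome, averaged 378 ± 58.9 FPKM in TGF-b1 and 379.8 ± 14.97 FPKM in control libraries (adjusted p = 0.94).

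The libraries differed in how far the 81 genes spread around the control mean. The SD over genes of log2(FPKM + 1) minus the control mean was 0.0975 in TGF-b1 1, 0.22 in TGF-b1 2 and 0.38 in TGF-b1 3, against 0.080, 0.068 and 0.11 in controls 1, 2 and 3. Over the 81 genes TGF-b1 2 and TGF-b1 3 were thus wider than every control, while TGF-b1 1 was narrower than control 3. Over all 11292 tested genes with a known composition the SD was 0.25, 0.28 and 0.32 in the TGF-b1 libraries. It was 0.13, 0.15 and 0.18 in the control libraries, so there every TGF-b1 library was wider than every control. The controls are set against a mean that contains them, which narrows their spread. TGF-b1 1 had most genes below the control mean by a similar amount, whereas TGF-b1 3 held both the lowest and the highest values of the set. TGF-b1 3 was the highest TGF-b1 library in 52 of the 81 genes and the lowest in 19, where 39.0% and 35.1% of all genes tested were. TGF-b1 1 was the lowest in 50, where 38.0% of all genes tested were.

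Base composition moved with the change. Across the 81 genes, the log2 change and the GC content of the longest annotated transcript had a Pearson correlation of -0.55 and a Spearman correlation of -0.54, and across all 11292 tested genes with a known composition these were -0.54 and -0.62. These are descriptions over genes of the same 6 libraries, with no p-value. In 20 genes with at least 55% GC the median log2 change was -0.39, against -0.20 in all 3212 tested genes of that range. In 26 genes under 45% GC it was -0.078, against 0.14 in all 4284 tested genes of that range. In the ranges from 45 to 50% and from 50 to 55% the medians were -0.12 and -0.24 for the 24 and 11 ribosomal protein genes, against 0.036 and -0.054 for all tested genes. The TGF-b1 values lay below all controls in 11 of the 20 genes with at least 55% GC and in 4 of the 26 under 45%, against 792 of 3212 and 120 of 4284 of all genes tested in these ranges.

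The same order by composition appeared in control 3, which received no TGF-b1. Over the 81 genes the Pearson correlation between GC content and the value relative to the control mean was -0.52, -0.61 and -0.44 in TGF-b1 1, 2 and 3, and 0.53, 0.47 and -0.65 in controls 1, 2 and 3. Deviations of the controls from their own mean balance out in each gene. The opposite signs in controls 1 and 2 are therefore not observations separate from that in control 3. When the smooth dependence on GC content and on length was taken out of each library, the correlation over the 81 genes was -0.0046 and their median log2 change -0.17, beside 0.0041 over all genes. In that fit 2 of the 81 genes were called, both lower (1.95% of all genes tested were called lower). The genes were RPL30 (log2 change -0.36, adjusted p = 0.022) and RPL22 (-0.35, adjusted p = 0.049). With control 3 also left out, 21 of the 81 were called lower and 0 higher, where 4.36% of all genes tested were called lower. Whether the composition trend accounts for the low ratios was not tested.

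**Figure D3:**
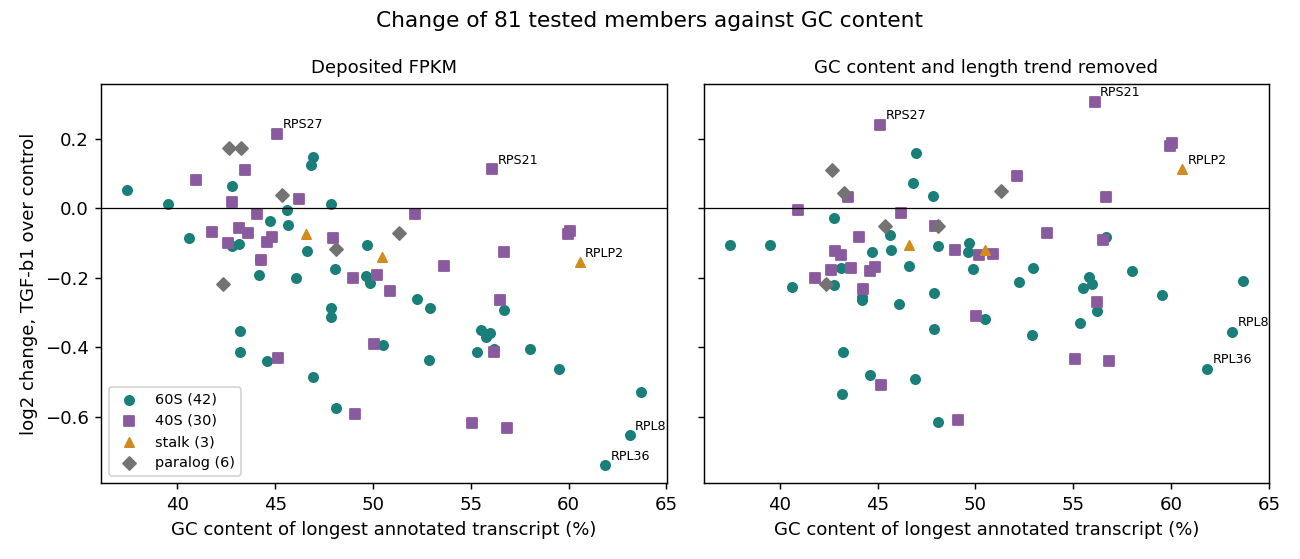
Change of the 81 tested genes (log2, TGF-b1 over control) against the GC content of the longest annotated transcript (percent), from the deposited FPKM (left) and after removal of the trend with GC content and length (right), with symbols for subunit and paralogs. On the left the points run downward with GC content (Pearson correlation -0.55), and on the right they do not, with most points still below 0 (median -0.17).

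Levels among the 85 genes spanned a wide range, although ribosomes hold their proteins in nearly equal number. Mean FPKM over the 6 libraries ran from 0 to 987, with a median of 196, and 55 genes reached 100 FPKM. Of these 55, 24 belonged to the 40S and 28 to the 60S subunit and 3 to the stalk. The median was 256 FPKM for the 40S genes, 178 FPKM for the 60S genes, 548 FPKM for the stalk genes and 10.2 FPKM for the paralogs. FPKM divides by the full length of annotated exons, 746 to 9845 bases in these genes, and RPS29 with 9845 and RPL17 with 2466 bases stood at 9.68 and 9.15 FPKM. The relation of level to annotated length was not tested.

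Several genes share exons with other annotated genes. RPS10 shared 39.4% of its exon bases with other genes and stood at 0.872, 0.866 and 1.16 FPKM in TGF-b1 and 0.606, 1.09 and 0.826 FPKM in control libraries. RPL10 shared 55.5% counted on either strand, with DNASE1L1 among others, and 2.80% on its own strand. For RPS10 and RPL17 the shares on their own strand were 39.4% and 32.7%. Some genes described above with low ratios also share exons. On either strand RPS2 shared 25.6%, RPL30 21.6%, RPL36 19.5% and RPL13A 17.3%. On their own strand these shares were 25.6%, 0%, 17.6% and 17.3%. RPL8, RPL27A, RPL35 and RPS14 shared 0 to 3.43% on either strand. RPL17 shared 35.3%, with the read-through gene RPL17-C18orf32 among others, and averaged 7.93 ± 1.28 FPKM in TGF-b1 and 10.4 ± 1.501 FPKM in control libraries, with groups that did not overlap (log2 change -0.35, SE 0.130, adjusted p = 0.14). RPS29 averaged 9.89 ± 3.17 FPKM in TGF-b1 and 9.47 ± 0.376 FPKM in control libraries (log2 change 0.019, SE 0.178, adjusted p = 0.95). RPL36A was at 0.754, 0.642 and 0.786 FPKM in TGF-b1 and 0.620, 0.691 and 0.775 FPKM in control libraries. Fragments that lie in more than 1 gene can be lost or split in counting, and the strand setting is not known, so levels of genes with shared exons are uncertain. RPS10 and RPL36A did not pass the filter on low values and were not tested, and neither were the paralogs RPL3L and RPL10L.

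Processed pseudogenes are a further source of uncertainty, since ribosomal protein messages have left many near-identical copies in the genome. The table held 1143 pseudogene rows named after 1 of the 85 genes, of which 365 were above 0 in some library, for 68 of the genes. For 4 tested genes the summed FPKM of these rows exceeded that of the gene itself: RPL9, RPS28, RPL39 and RPS7. FPKM divides by annotated length, and the most abundant copies are shorter than these genes, so a higher FPKM need not mean more fragments. Exon lengths were 717 bases in RPL9P9 and 5022 in RPL9, and 210 in RPS28P7 and 2119 in RPS28. They were 156 bases in RPL39P3 and 2141 in RPL39, and 585 in RPS7P1 and 5584 in RPS7. By FPKM times length, RPL9P9 held more fragments than RPL9, while RPS28P7, RPL39P3 and RPS7P1 held fewer than their genes. RPL9 averaged 61.3 ± 4.56 FPKM in TGF-b1 and 65.1 ± 4.31 FPKM in control libraries, while its pseudogene RPL9P9 on chromosome 15 averaged 696 ± 23.5 FPKM in TGF-b1 and 889 ± 114 FPKM in control libraries. RPS28 averaged 74.3 ± 9.47 FPKM in TGF-b1 and 78.1 ± 6.57 FPKM in control libraries, and RPS28P7 on chromosome 11 547 ± 82.2 FPKM in TGF-b1 and 587 ± 106 FPKM in control libraries. RPL39P3 on chromosome 6 averaged 339 ± 123 FPKM in TGF-b1 and 272 ± 10.1 FPKM in control libraries, beside the RPL39 values given above. RPS2, among the most abundant genes, had RPS2P5 on chromosome 12 at 376 ± 87.5 FPKM in TGF-b1 and 440.0 ± 92.1 FPKM in control libraries. None of the 20 pseudogene rows at 50 FPKM or more passed the test, and the lowest adjusted p was 0.058, for RPL3P4 (69.1 FPKM in TGF-b1 and 93.4 FPKM in control libraries). These rows were looked up after the values of the genes were seen. Reads of a gene and of such a copy cannot be told apart with certainty, so the values of these genes may be shared with the copies.

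**Figure D4:**
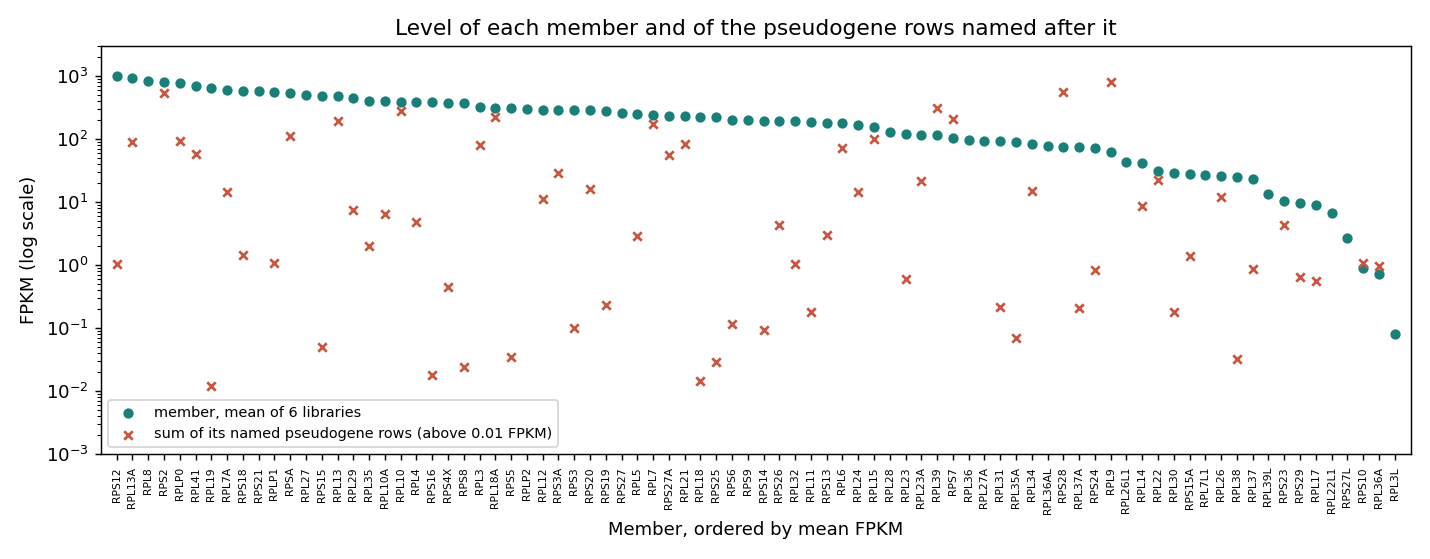
Mean FPKM over the 6 libraries (log scale) of 82 of the genes above 0 (green points), ordered from the highest, with the summed mean FPKM of the pseudogene rows named after it (red crosses, shown above 0.01 FPKM). For RPL9, RPS28, RPL39 and RPS7, and for RPS10 and RPL36A, which were not tested, the cross lies above the point. FPKM divides by length, so a cross above its point need not mean more fragments.

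Of the 8 paralogs 6 were tested and none passed. RPL22L1, a paralog of RPL22, was at 6.47, 7.69 and 7.66 FPKM in the TGF-b1 libraries, against 5.93, 6.40 and 6.64 FPKM in the control libraries (log2 change 0.17, SE 0.0969, adjusted p = 0.27). RPL22 was at 27.1, 29.3 and 25.8 FPKM in the TGF-b1 libraries, against 31.8, 38.1 and 33.0 FPKM in the control libraries, with all TGF-b1 values below all controls (log2 change -0.31, SE 0.101, adjusted p = 0.11). It passed without control 3, at -0.34 (adjusted p = 0.041). RPS27L, a paralog of RPS27 and a p53 target, was at 2.498, 2.89 and 3.25 FPKM in the TGF-b1 libraries, against 2.61, 2.45 and 2.23 FPKM in the control libraries (log2 change 0.17, SE 0.104, adjusted p = 0.30). RPL39L, known for its expression in testis and in cancer cells, averaged 13.3 ± 1.84 FPKM in TGF-b1 and 13.9 ± 0.638 FPKM in control libraries (log2 change -0.072, SE 0.109, adjusted p = 0.69).

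RPL26L1 was more abundant than RPL26 per annotated length. It averaged 41.4 ± 3.21 FPKM in TGF-b1 and 44.99 ± 1.61 FPKM in control libraries (log2 change -0.12, SE 0.0950, adjusted p = 0.43), and RPL26 averaged 21.6 ± 3.81 FPKM in TGF-b1 and 29.5 ± 4.42 FPKM in control libraries, without overlap between its groups (log2 change -0.44, SE 0.143, adjusted p = 0.12). Their exon lengths were 1164 and 2513 bases. In fragments RPL26 had 1219, 1495 and 1039 in the TGF-b1 and 1548, 1968 and 1539 in the control libraries. RPL26L1 had 997, 1094 and 1247 in the TGF-b1 and 1140, 1233 and 1195 in the control libraries. By that measure RPL26L1 was the higher gene only in TGF-b1 3. RPL36AL averaged 72.1 ± 9.37 FPKM in TGF-b1 and 83.8 ± 9.30 FPKM in control libraries (log2 change -0.22, SE 0.122, adjusted p = 0.28), far above RPL36A. RPL7L1, whose product acts in assembly of the large subunit, averaged 27.2 ± 1.02 FPKM in TGF-b1 and 26.5 ± 0.950 FPKM in control libraries (log2 change 0.038, SE 0.0873, adjusted p = 0.80), and RPL7 averaged 243 ± 35.2 FPKM in TGF-b1 and 239 ± 13.3 FPKM in control libraries (log2 change 0.012, SE 0.125, adjusted p = 0.96). RPL3L, the form of heart and skeletal muscle, had 3, 4 and 5 fragments in the TGF-b1 libraries and 8, 5 and 6 in the control libraries. RPL10L, the testis form of RPL10, had 0 in all 6, which allows up to 3 fragments per library, counting error only.

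**Figure D5:**
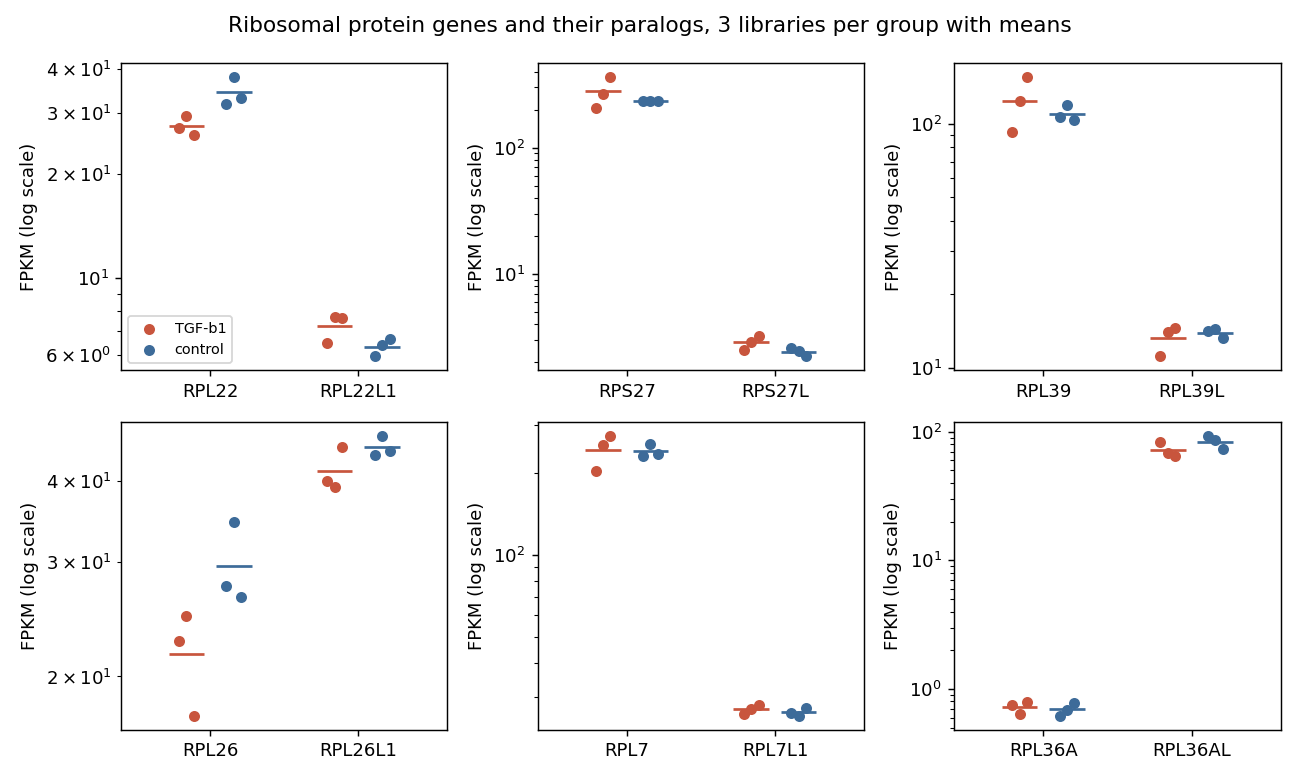
FPKM (log scale, a separate scale in each panel) of 6 ribosomal protein genes and their paralogs, with the 3 TGF-b1 libraries in red, the 3 control libraries in blue and lines at group means. In the panel of RPL22 and RPL22L1, the RPL22 points of the TGF-b1 libraries (25.8 to 29.3 FPKM) lie below those of the control libraries (31.8 to 38.1 FPKM), while the RPL22L1 groups overlap.

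Small nucleolar RNAs, which guide the modification of ribosomal RNA, are often encoded in introns of ribosomal protein genes. Of the 81 tested genes, 28 (34.6%) held at least 1 annotated snoRNA gene on the same strand inside their bounds, against 105 of the other 9922 tested coding genes (1.06%). The genes lay on 21 chromosomes, with 12 on chromosome 19.

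Other genes of ribosome production and translation gave few calls. Of 60 tested ribosome biogenesis factors, 0 passed higher and 0 lower (median log2 change 0.050). At an unadjusted p under 0.05 there were 11 higher and 10 lower, where 11.2% and 13.9% of all genes tested were. Without control 3, 10 passed higher and 13 lower, where 12.4% and 16.5% of all genes tested did. None of 15 RNA polymerase I genes passed (median 0.12, and 0.0037 with the GC content and length trend removed, with 1 higher and 0 lower unadjusted). None of 29 initiation factors passed (median -0.0087, with 4 higher and 1 lower unadjusted), and none of 12 snoRNA host genes did (median 0.0087, with 1 higher and 0 lower unadjusted).

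Messages of 21 other genes known for a TOP tract, among them EEF1A1, EEF2, RACK1 and FAU, had a median log2 change of 0.0033, and 0 passed, with 2 higher and 3 lower at an unadjusted p under 0.05, where 11.2% and 13.9% of all genes tested were. In 6 of the 21 all TGF-b1 values lay below all controls and in 1 all lay above, where 12.5% and 14.6% of all genes tested did. With the GC content and length trend removed the median was -0.11, beside -0.17 for the 81 ribosomal protein genes in that fit. FAU averaged 207 ± 35.7 FPKM in TGF-b1 and 200.8 ± 28.0 FPKM in control libraries (adjusted p = 0.87). EEF1A1, the elongation factor that brings aminoacyl-tRNA to the ribosome, averaged 1939 ± 72.7 FPKM in TGF-b1 and 2282 ± 122 FPKM in control libraries (adjusted p = 0.22). The 74 tested genes of the mitochondrial ribosome, a separate particle in the organelle, had a median log2 change of -0.13. None passed, and 0 were higher and 20 lower at an unadjusted p under 0.05, where 11.2% and 13.9% of all genes tested were. In 16 of them all TGF-b1 values lay below all controls and in 1 all lay above, where 12.5% and 14.6% of all genes tested did. Without control 3, 28 of the mitochondrial genes were called lower and 0 higher, where 16.5% of all genes tested were called lower. With the GC content and length trend removed, 2 were called lower (1.95% of all genes tested) and their median was -0.12. None of 17 p53 target genes passed (median -0.079, 1 higher and 3 lower unadjusted).

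Of 22 regulators of mTORC1 and of TOP messages, 0 passed higher and 2 lower, against 1.14% higher and 1.29% lower over all genes tested. Both encode proteins that restrain mTOR. DDIT4 was at 50.1, 45.04 and 35.7 FPKM in the TGF-b1 libraries, against 91.8, 88.0 and 67.4 FPKM in the control libraries (log2 change -0.90, SE 0.150, adjusted p = 0.012). DEPTOR was at 1.28, 1.10 and 1.28 FPKM in the TGF-b1 libraries, against 2.47, 2.85 and 2.56 FPKM in the control libraries (log2 change -0.71, SE 0.0967, adjusted p = 0.0033). The groups did not overlap in either gene. DDIT4 was no longer called without control 2 (adjusted p = 0.051) or with no filter on low values (adjusted p = 0.24), and DEPTOR was not called with no filter (adjusted p = 0.082). Of the 22 genes, 1 was higher and 6 lower at an unadjusted p under 0.05, where 11.2% and 13.9% of all genes tested were. Without control 3, 3 were called higher and 7 lower, where 12.4% and 16.5% of all genes tested were. The list's median was 0.067, and LARP1, which binds TOP tracts, averaged 39.6 ± 2.90 FPKM in TGF-b1 and 36.3 ± 3.38 FPKM in control libraries (adjusted p = 0.44).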

How the data were processed

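RNA of 3 TGF-b1 and 3 control T24 libraries was sequenced as 150 bp pairs. The submitters' processing notes name the aligner HISAT2 2.0.5, the counter featureCounts 1.5.0-p3 and the genome build hg38. Strand setting and annotation were not given in the sources used here. Where annotated genes overlap in opposite orientation, their fragments may therefore be mixed. The authors deposited FPKM, fragments scaled to exon length and library size. The first 11 rows, mapping totals, were left out. Of 58735 gene rows, 56923 matched GENCODE release 29 (GRCh38) by a unique symbol, which gave coordinates and exon lengths. FPKM times length gave whole fragments for 99.999% of 126561 values above 0, to within 0.05. The FPKM denominators were 0.964 to 1.04 times the fragments recovered, so the deposited values carry a scaling between libraries. Sums of FPKM and log2 changes share this scaling, but it cancels in percentages of a library's own FPKM sum.

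Log2(FPKM + 1) was fitted with limma 3.58.1 (R 4.3.3), using a mean-variance trend and robust estimation, for the 11363 genes that reached 1 FPKM in 3 or more libraries, with Benjamini-Hochberg adjustment at 0.05. All adjusted p-values come from it unless another setting is named. The members and lists were chosen with earlier results of these data known. Named genes are the most and least abundant 5 of those tested, a set of paralogs, stalk, 5S-binding and well-known members whatever their values, up to 3 called genes of each other list, and genes marked as chosen after their values were seen. The authors' libraries were no duplicates: pairs of libraries within a group differed by a chi-square of 7.56 to 36.1 per degree of freedom, and sampling noise alone gives 1. GC content is of the longest annotated transcript, and its trend was removed by loess with a span of 0.3. Summed levels and lists have no test. Some genes of the counts and sums are not reported here by name. Alternatives were another pseudocount, filters, scalings, limma settings, voom, a replicate block, trend removal and leaving out libraries.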

Additional observations from a re-analysis of the deposited data

How the results depend on the processing

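The absence of higher calls among the 81 genes held under all 18 alternatives, and their median log2 change stayed between -0.23 and -0.071. The lowest size came with each library scaled to the same FPKM sum, which moved the median of all genes to 0.077. Lower calls depended on the setting. Against 0, there were 1 with libraries scaled to a median ratio of 0 over other genes, 2 with the GC content and length trend removed, 5 for genes of 5 FPKM or more, 11 over protein-coding genes, 20 by voom, and 21 without control 3 with the trend removed. Leaving out single libraries gave 0 to 29. Calls over the whole table were 277, against 15 without a filter, 500 for genes of 5 FPKM or more, 512 with the trend removed, 842 over protein-coding genes, 1014 by voom, 935 without control 3 with the trend removed, and 124 to 3280 with single libraries left out. The cause was not tested. With the replicate number as a block there were 767 calls and 7 lower members, and 580 and 11 with the trend also removed. Over all genes tested 4.56% and 2.52% were lower in these 2 fits. Deviations of same-numbered libraries correlated at 0.25, -0.071 and 0.17 over genes, not every library correlated best with its own number, and the labels name no shared culture, so the numbers were not taken to pair the libraries. The summed share of FPKM differed by -0.82 percentage points, TGF-b1 minus control, and by -1.11 to -0.59 with single libraries left out.

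Of 701 values of 39 named members under the alternatives, 56 became called in the same direction, 597 kept their direction without a call and 48 took the other sign. The last were small changes, of which none was called in the reported fit. With equal FPKM sums these were RPL39L (0.0025), RPLP1 (0.0053), RPS4X (0.063), RPS28 (0.0049), RPS7 (0.0078); with the median scaling, RPL7 (-0.0017); by voom, RPS4X (0.018). In the 2 fits with the trend removed, with and without the replicate block, they were RPL39L (0.049), RPL7 (-0.11), RPL7L1 (-0.050), RPLP2 (0.11), RPL5 (-0.10), RPS19 (0.033), RPS29 (-0.12), RPS28 (0.18). Without control 3 with the trend removed, they were RPS27L (-0.058), RPL39L (0.069), RPL7 (-0.16), RPL7L1 (-0.066), RPLP2 (0.079), RPL5 (-0.16), RPS19 (0.012), RPS27A (-0.024), RPS29 (-0.19), RPS28 (0.22). With single libraries left out, ranges that crossed 0 were RPL39L -0.14 to 0.039, RPLP1 -0.19 to 0.035, RPS4X -0.14 to 0.083, RPL7 -0.074 to 0.13, RPL39 -0.029 to 0.34, RPL5 -0.055 to 0.16, RPS27A -0.041 to 0.27, RPS29 -0.21 to 0.18, RPS21 -0.12 to 0.33. With no filter on low values SMAD7 and SKIL were not called either (adjusted p = 0.061 for both), where PMEPA1 was called under each of the 18 alternatives. RPL3L and RPL10L had too few fragments for a change to be detectable at this depth.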
